A study of Mus musculus with 4 samples.

Results

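The 10 genes described here are Srf, its cofactor genes Mkl1 and Mkl2, the cytoplasmic actin genes Actb and Actg1, and 5 genes of the actin cytoskeleton that are known targets of the factor, Vcl, Tagln2, Myl9, Tpm1 and Fhl2. They were picked by symbol as genes of 1 pathway, with earlier results of these data known. They are 10 of the 24421 rows of the count matrix. Messenger RNA was counted at its 3′ end by bulk MARS-seq, in which each molecule carries a unique molecular identifier, in 4 libraries of B16F10 cells, a melanoma line of C57BL/6 mice grown in culture. Cells of 2 libraries (shControl) carried a lentiviral vector with no insert, per the study's list of materials, and those of the other 2 (shLmna) carried the same kind of vector with a short hairpin RNA that targets Lmna, which encodes lamins A and C. Both were stable lines selected with puromycin. Since the shControl cells had no hairpin, its mere presence and any effect of it besides lowering Lmna are part of the comparison. These cannot be told apart from the knockdown here. The sources do not say whether replicate libraries stem from separate transductions, so the p-values measure the spread between these libraries, which may be technical.

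Serum response factor (SRF) binds CArG boxes in DNA and works with myocardin-related transcription factors (MRTFs), the products of Mkl1 and Mkl2. MRTFs bind monomeric G-actin in the cytoplasm and enter the nucleus when actin is assembled into filaments, for example downstream of RhoA, and many of the genes that SRF and MRTFs switch on encode actin and its partners. Loss of lamin A/C is known to impair this signalling in other cells, and the comparison asks whether transcripts of the pathway differed when Lmna was knocked down in melanoma cells.

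Vcl was the 1 gene of the set that passed the adjusted test, and it fell to the limit of detection in both shLmna libraries. Srf, Mkl1, Mkl2, Actb, Actg1, Tagln2, Myl9 and Tpm1 did not pass the test, and Fhl2 had too few counts to be tested. With 2 libraries per group, not passing does not show that a transcript was unchanged. Around the set, another tropomyosin gene, Tpm4, and the small GTPase gene Rhob also fell. The lists of actin and RhoA genes held both higher and lower genes.

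CArG boxes, the sites that SRF binds, were looked for in the promoters of the set, to show which of these genes carry one close to the start of transcription. RefSeq windows on GRCm38.p6, from 250 bases before to 50 bases after an annotated start, were matched for 9 of the 10 genes, all but Actb. Windows of 5 of the 9 genes (55.6%) held at least 1 exact CArG box of 10 bases, against 488 of 27025 genes (1.81%) in the whole promoter table. The box reads the same way on both strands, so 1 search covered both. Since the genes are known as SRF targets, this share describes them and is no test. The boxes are shown in capitals, with 20 flanking bases on each side, 5′ to 3′ on the strand of the gene.
Srf, chr17:46556195-46556264, minus strand: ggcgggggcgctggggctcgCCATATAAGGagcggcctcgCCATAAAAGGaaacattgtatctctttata
Actg1, chr11:120348556-120348605, minus strand: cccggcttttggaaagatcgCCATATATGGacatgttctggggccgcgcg
Vcl, chr14:20929151-20929200, plus strand: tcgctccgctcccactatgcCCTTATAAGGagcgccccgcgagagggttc
Myl9, chr2:156775283-156775332, plus strand: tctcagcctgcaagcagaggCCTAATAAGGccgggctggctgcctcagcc
Fhl2, first start, chr1:43196828-43196877, minus strand: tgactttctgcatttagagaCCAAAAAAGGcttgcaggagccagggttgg
Fhl2, second start, chr1:43163963-43164012, minus strand: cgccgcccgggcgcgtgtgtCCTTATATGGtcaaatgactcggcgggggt

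Srf carried 2 boxes, which began 82 and 62 bases before the start, and was the 1 gene with a pair of them in a single window. In Actg1 the box began 90 bases before the start, in Myl9 161 bases and in Vcl 227 bases, the farthest of the set. The 2 boxes of Fhl2 belong to different annotated starts and began 96 and 31 bases before them. The windows of Mkl1, Mkl2, Tagln2 and Tpm1 held no exact box, which says only that these letters are not in those windows.

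**Figure D1:**
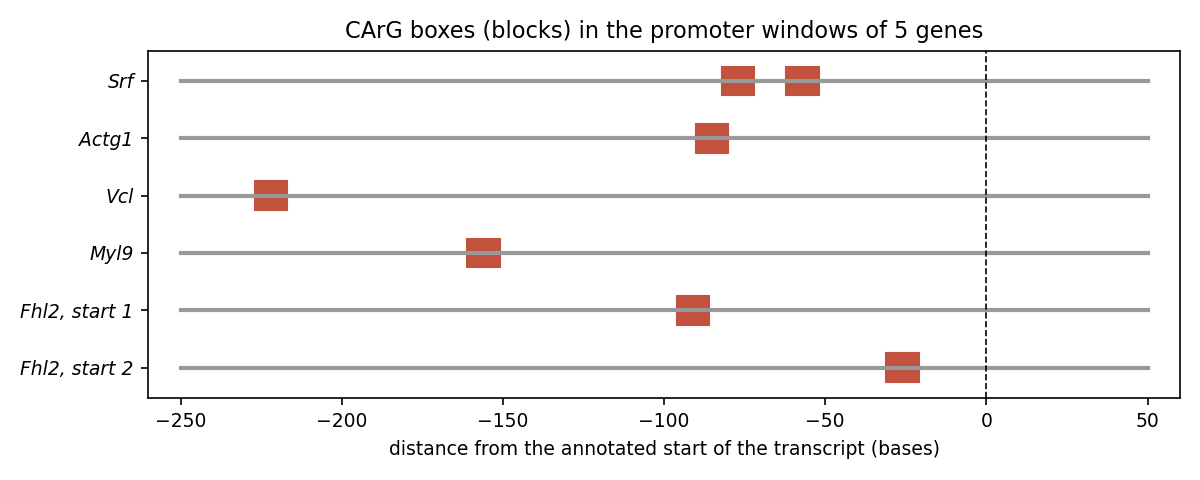
Positions of CArG boxes (blocks) in the promoter windows of the 5 genes that held one, with the distance from the annotated transcript start in bases on the horizontal axis and 1 row per window. Srf has 2 boxes, at 82 and 62 bases before the start, and the box of Vcl lies farthest upstream, at 227 bases.

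Library totals ranged from 2494880 to 3808843 counts, and 11562 to 12395 genes had at least 1 count in a library. After a filter on low counts 9150 genes were tested, among them 9 of the 10. The quasi-likelihood F test of edgeR gave an adjusted p under 0.05 for 15.2% of the tested genes, with 9.74% lower and 5.48% higher in shLmna, and 7.64% also met the study's limits of a log2 fold change beyond 1 and a mean normalized count over 5. Values of the 2 groups did not overlap for 60.1% of the tested genes. The knockdown check held, since Lmna had 2826 and 2684 counts in the shControl libraries against 331 and 480 in the shLmna libraries, a log2 fold change of −2.61 (SE 0.142, adjusted p 7.93e-06 in edgeR). Of the 8 melanocyte genes listed as markers, 7 were tested and 3 passed (42.9%, against 15.2% of all tested genes). Sox10 was lower, and Pmel and Mlana were higher. The summed level of the 8 genes was 20193 to 20975 CPM (counts scaled to a library total of 1000000) in shControl. In shLmna it was 21214 to 24669 CPM. The summed level of 11 fibroblast and smooth muscle markers was 16.6 to 18.9 CPM in shControl and 14.2 to 14.7 CPM in shLmna, with Acta2, Dcn and Lum at 0 in all libraries. Of 7 endothelial and 7 leukocyte markers, none reached the filter, and Cdh5, Kdr and Ptprc were at 0 in all libraries. Their summed levels were 3.10 to 3.21 CPM in shControl and 0 to 1.36 CPM in shLmna for the endothelial list, and 0.268 to 1.86 CPM and 1.19 to 1.63 CPM for the leukocyte list. Fewer cells of a type and less RNA per cell cannot be told apart in such bulk libraries.

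Among the 10 genes, 1 of the 9 tested passed (11.1%), a share close to the 15.2% of all tested genes. At an unadjusted p under 0.05 the count was also 1. Their log2 fold changes ran from −4.14 to 0.24 with a median of −0.11, against a median of −0.00 over all tested genes, and 5 of the 9 were negative. Groups did not overlap for 5 of the 9, and this share is close to the background of 60.1%. All levels below are CPM scaled by TMM, as mean ± SD over 2 libraries, and compare 1 gene between groups, not genes with each other.

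**Figure D2:**
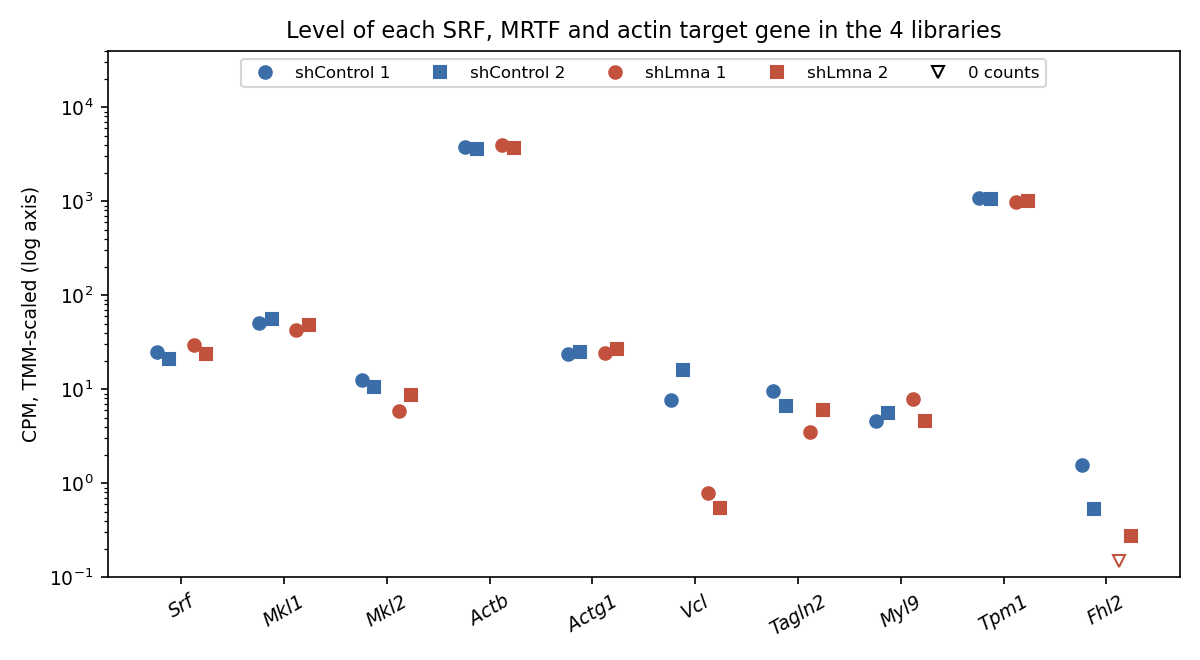
Level of each of the 10 genes in the 4 libraries, as TMM-scaled CPM on a log axis, with shControl in blue, shLmna in red and an open triangle for a library with 0 counts, drawn at an arbitrary height. The Vcl points of shLmna lie at 0.791 and 0.545 CPM, below both shControl points at 7.74 and 16.1 CPM, while those of Actb lie close together in all 4 libraries.

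Srf encodes the DNA-binding factor itself and is on chromosome 17, 46548329 to 46556175, minus strand. Its counts were 80 and 79 in the shControl libraries and 75 and 88 in the shLmna libraries, or 23.0 ± 2.57 CPM and 26.8 ± 4.02 CPM (n = 2 each). The ranges overlapped, with shLmna 1 the highest of the libraries and shLmna 2 below shControl 1. The log2 fold change of shLmna against shControl was 0.22 (SE 0.221, 95% interval −0.28 to 0.71, adjusted p 0.555 in edgeR). The difference in Srf was within the spread between libraries.

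Mkl1 and Mkl2, now also named Mrtfa and Mrtfb, encode the actin-sensing cofactors of SRF. Mkl1 (chromosome 15, 81012281 to 81190757, minus strand) had 165 and 210 counts in shControl against 107 and 177 in shLmna. Levels were 53.7 ± 3.62 CPM in shControl and 45.3 ± 4.18 CPM in shLmna (n = 2 each). Both shLmna libraries lay below both shControl libraries. Groups that do not overlap, in either direction, made up 60.1% of all tested genes. The log2 fold change of Mkl1 was −0.24 (SE 0.161, 95% interval −0.60 to 0.12, adjusted p 0.352 in edgeR).

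Mkl2 (chromosome 16, 13256481 to 13417529, plus strand) had 41 and 40 counts in shControl against 15 and 32 in shLmna. The corresponding levels were 11.7 ± 1.41 CPM and 7.33 ± 1.97 CPM (n = 2 each). Again the groups did not overlap, and shLmna 1 was the lowest library. The log2 fold change of −0.64 did not pass (SE 0.311, 95% interval −1.34 to 0.05, adjusted p 0.200 in edgeR). In the authors' batch-corrected log2 values, tested with limma, both cofactor genes passed by a narrow margin and with small differences, −0.11 for Mkl1 (adjusted p 0.0272) and −0.11 for Mkl2 (adjusted p 0.0493), while under the other 11 alternatives neither did. Over all 12 alternatives the adjusted p ran from 0.0272 to 0.833 for Mkl1 and from 0.0493 to 0.744 for Mkl2.

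Actb and Actg1 encode the β and γ actins of non-muscle cells, the building blocks of the filaments and the ligands of MRTFs. Actb (chromosome 5, 142903115 to 142906754, minus strand) had 12296 and 13327 counts in shControl against 10091 and 13671 in shLmna. Its level was 3688 ± 170.1 CPM in shControl and 3858 ± 188.3 CPM in shLmna (n = 2 each), and the groups overlapped. With counts this high the interval was narrow, from −0.14 to 0.27 around a log2 fold change of 0.06 (SE 0.0936, adjusted p 0.691 in edgeR). The sign of this difference was negative, at −0.0022 to −0.0055, with the batch-corrected values, with the size-factor signal and with offsets for GC content.

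Actg1 (chromosome 11, 120345690 to 120348542, minus strand) had 77 and 94 counts in shControl against 62 and 98 in shLmna, or 24.5 ± 0.931 CPM and 25.6 ± 1.54 CPM (n = 2 each). All 4 libraries lay close together and the groups overlapped. The log2 fold change was 0.07 (SE 0.205, 95% interval −0.39 to 0.52, adjusted p 0.865 in edgeR). Counts of both actin genes are uncertain, because 34.8% of the 31-base stretches in the last 1000 bases of Actb and 27.8% of those of Actg1 also occur in transcripts of other genes, processed pseudogenes among them. The muscle actin genes Acta1, Acta2, Actc1 and Actg2 had at most 5 counts in any library and were not tested.

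Vcl encodes vinculin, which links actin filaments to integrin and cadherin adhesions, and lies on chromosome 14, 20929398 to 21033676, plus strand. Its counts were 25 in shControl 1, 60 in shControl 2, 2 in shLmna 1 and 2 in shLmna 2. Levels were 11.9 ± 5.88 CPM in shControl and 0.668 ± 0.174 CPM in shLmna (n = 2 each). The groups were well apart, although the shControl libraries differed from each other by a factor of 2.07. Summed over a group, 85 counts (exact Poisson 95% interval 67.9 to 105) stood against 4 (1.09 to 10.2), and these intervals cover counting error only.

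Both shLmna libraries were at or under a floor of 3 counts per library, which is 1.002 CPM on average. The difference is therefore also given against that floor. Put at the floor, Vcl in shLmna was 11.9-fold lower than the shControl mean, 7.73-fold lower than shControl 1 and 16.03-fold lower than shControl 2. These ratios leave out the error of the counts, and the 95% interval of the fit below reaches smaller differences. The fitted log2 fold change, which depends on the prior count at such levels, was −4.14 (SE 0.603, 95% interval −5.48 to −2.79, adjusted p 0.0016 in edgeR). Vcl also met the study's 3 limits, as did 7.64% of the tested genes. Leaving out shControl 2 gave −3.51 and leaving out shControl 1 gave −4.55, and Vcl passed the adjusted test under all 12 alternatives, with adjusted p from 1.13e-12 to 0.0444. With the batch-corrected log2 values, which are on another scale, its difference was −0.40, far smaller than −4.14. At that value it passed the adjusted test but did not reach the study's log2 fold change limit of 1.

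**Figure D3:**
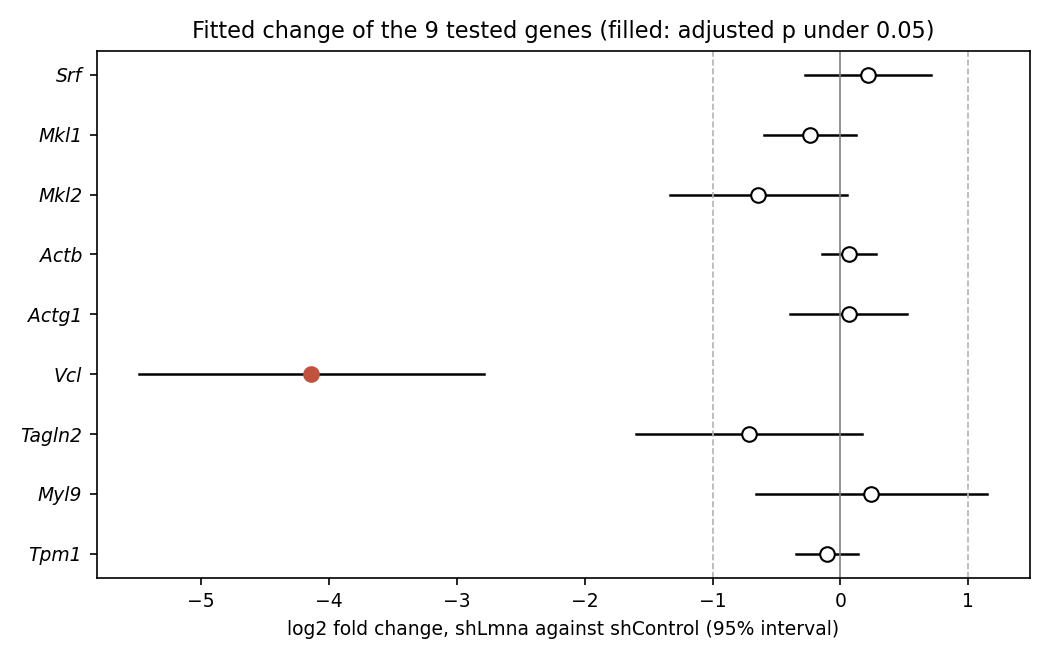
Fitted log2 fold change of shLmna against shControl (horizontal axis) for the 9 tested genes, with 95% intervals as bars, a filled point for an adjusted p under 0.05 and dashed lines at −1 and 1. Vcl, at −4.14, is the 1 filled point, and the intervals of the other 8 genes include 0.

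Many transcripts with a low GC content near the 3′ end were lower in shLmna, and Vcl has such an end. The last 1000 bases of Vcl are 36.6% G or C, the lowest value of the set, which otherwise spans 43.4% (Mkl2) to 58.0% (Srf). Of the 512 tested genes within 1 percentage point of Vcl, 24.2% passed as lower, against 9.74% of all tested genes, and 5.47% had a lower log2 fold change than Vcl. The log2 fold changes of these genes spread both ways, with a median of −0.14 and quartiles of −0.95 and 0.38. With per-library offsets for GC content the log2 fold change of Vcl was −4.04 (adjusted p 0.00209 in edgeR). Apart from these offsets, the part of base composition in the result was not tested.

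**Figure D4:**
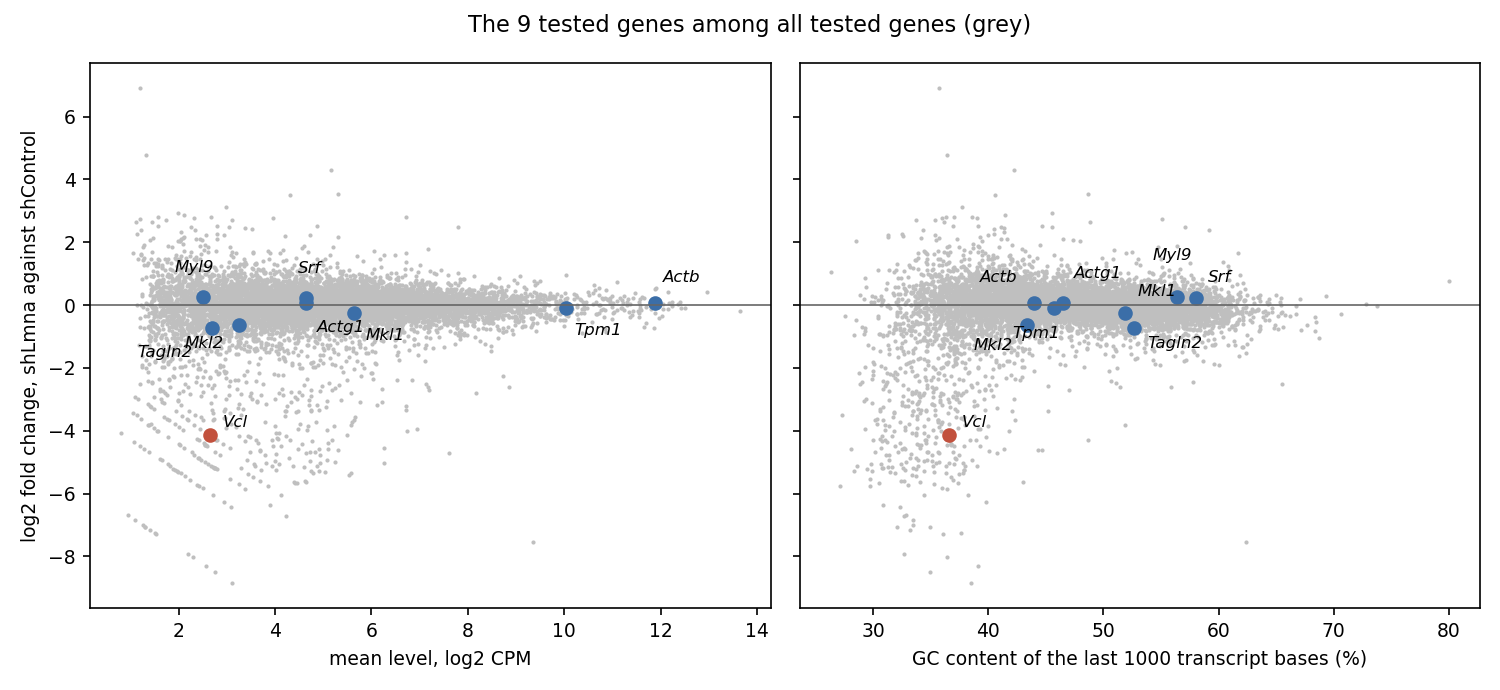
Log2 fold change of shLmna against shControl for all 9150 tested genes (grey), against mean level in log2 CPM (left) and against GC content of the last 1000 transcript bases in percent (right), with 8 of the 9 tested genes of the set in blue and Vcl, the gene that passed, in red. Vcl, at 36.6% GC, lies among the many strongly lower genes of low GC content, whereas the other 8 genes lie in the main cloud.

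Tagln2, Myl9 and Tpm1 are genes of actin-binding and contractile proteins. Tagln2, which encodes the actin-bundling protein transgelin-2, is on chromosome 1, 172500047 to 172507380, plus strand. It had 31 and 25 counts in shControl against 9 and 22 in shLmna, or 8.15 ± 2.06 CPM and 4.78 ± 1.72 CPM (n = 2 each). Groups did not overlap, but shLmna 2 at 5.99 CPM was close to shControl 2 at 6.69 CPM. Its log2 fold change was −0.72 (SE 0.394, 95% interval −1.60 to 0.17, adjusted p 0.259 in edgeR).

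Myl9 encodes a regulatory light chain of non-muscle and smooth muscle myosin (chromosome 2, 156775420 to 156781658, plus strand). It had 15 and 21 counts in shControl against 20 and 17 in shLmna, which gave 5.13 ± 0.690 CPM and 6.27 ± 2.32 CPM (n = 2 each). The highest and the lowest levels both belonged to shLmna libraries, at 7.91 and 4.63 CPM. The log2 fold change was 0.24 (SE 0.405, 95% interval −0.66 to 1.15, adjusted p 0.736 in edgeR), and it was −0.15 without shLmna 1. At these counts a change of 2-fold in the upward direction could not be told from none.

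Tpm1 encodes α-tropomyosin, which runs along actin filaments (chromosome 9, 67022590 to 67049406, minus strand). Its counts of 3544 and 3988 in shControl and 2518 and 3732 in shLmna correspond to 1083 ± 21.2 CPM and 1006 ± 14.8 CPM (n = 2 each). Libraries of a group lay very close together and both shLmna libraries were below both shControl libraries. The difference was small, a log2 fold change of −0.11 (SE 0.107, 95% interval −0.35 to 0.13, adjusted p 0.553 in edgeR).

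Fhl2 encodes a LIM-domain protein that binds SRF and other factors and lies on chromosome 1, 43123074 to 43196984, minus strand. It had 5 and 2 counts in shControl against 0 and 1 in shLmna and did not reach the filter. Summed counts of 7 (exact Poisson 95% interval 2.81 to 14.4) and 1 (0.0253 to 5.57) have overlapping intervals, and a difference was not detectable at this depth.

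The promoter boxes and the changes can be set side by side. Of the genes with a box, Vcl fell, whereas Srf, Actg1 and Myl9 had positive log2 fold changes that did not pass. Fhl2, which also had boxes, was not tested (5 and 2 counts in shControl against 0 and 1 in shLmna). The 4 genes whose windows held no box, Mkl1, Mkl2, Tagln2 and Tpm1, all had negative log2 fold changes, and none passed. Over all tested genes with a promoter in the table, 13 of 104 with a box passed (12.5%), 9 lower and 4 higher, and 1116 of 7368 without a box passed, 715 lower and 401 higher. Median log2 fold changes were −0.06 and 0.00, with quartiles of −0.39 and 0.23 for genes with a box and −0.30 and 0.28 for those without.

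Other genes known as MRTF-SRF targets were listed to show the set in its pathway. This list and those below were drawn up with earlier results of these data known. Their shares of passing genes therefore describe the lists and are no test of them. All 45 were in the matrix, 29 were tested and 7 passed (24.1%, against 15.2% of all tested genes), 6 lower and 1 higher, with a median log2 fold change of −0.16. Tpm4, a further tropomyosin gene, had 399 and 1043 counts in shControl against 34 and 43 in shLmna. It fell by 4.01 on the log2 scale (SE 0.382, adjusted p 0.000122 in edgeR), from 201.4 ± 110.1 CPM to 12.6 ± 1.23 CPM (n = 2 each), and passed under all 12 alternatives. Leaving out shControl 2 gave −3.31. The GC content of its 3′ end was 41.8%.

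Most of the remaining genes of this list that passed act at adhesions, in contraction and on actin itself. Pfn1, whose product profilin binds G-actin and feeds filament growth, had 367 and 624 counts in shControl against 169 and 228 in shLmna (log2 fold change −1.13, SE 0.185, adjusted p 0.00326 in edgeR). Tln1, which encodes talin, a binding partner of vinculin at integrins, was lower by a modest amount (log2 fold change −0.57, SE 0.143, adjusted p 0.0246 in edgeR). Mylk, the gene of myosin light chain kinase, had 87 and 82 counts against 23 and 42 (−1.23, SE 0.252, adjusted p 0.0101 in edgeR).

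Crim1, a membrane protein gene with a 3′ end of 30.9% GC, had 18 and 16 counts against 0 and 3. Put at the floor of 3 counts, Crim1 in shLmna was 4.92-fold lower than the shControl mean. This ratio leaves out the error of the counts, and the interval of the fit reaches smaller differences. The fitted log2 fold change of Crim1 was −3.26 (SE 0.755, interval −4.95 to −1.57, adjusted p 0.0183 in edgeR). Cfl1, whose product cofilin severs filaments, was the most abundant gene of the list and fell from 4663 ± 345.9 CPM to 3649 ± 58.1 CPM (n = 2 each, log2 fold change −0.35, SE 0.0938, adjusted p 0.0316 in edgeR). The 1 higher gene was Csrp1, which encodes a LIM-domain protein bound to actin filaments through α-actinin and zyxin (log2 fold change 0.65, SE 0.123, adjusted p 0.00686 in edgeR).

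Apart from Tpm4, each of these 6 genes lost its call when shLmna 1 or shLmna 2 was left out, or in both cases. The count over the list was 3 without shLmna 1, 2 without shLmna 2 and 11 without shControl 1. The log2 fold change of Crim1 ran from −2.53 without shLmna 1 to −6.97 without shLmna 2.

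**Figure D5:**
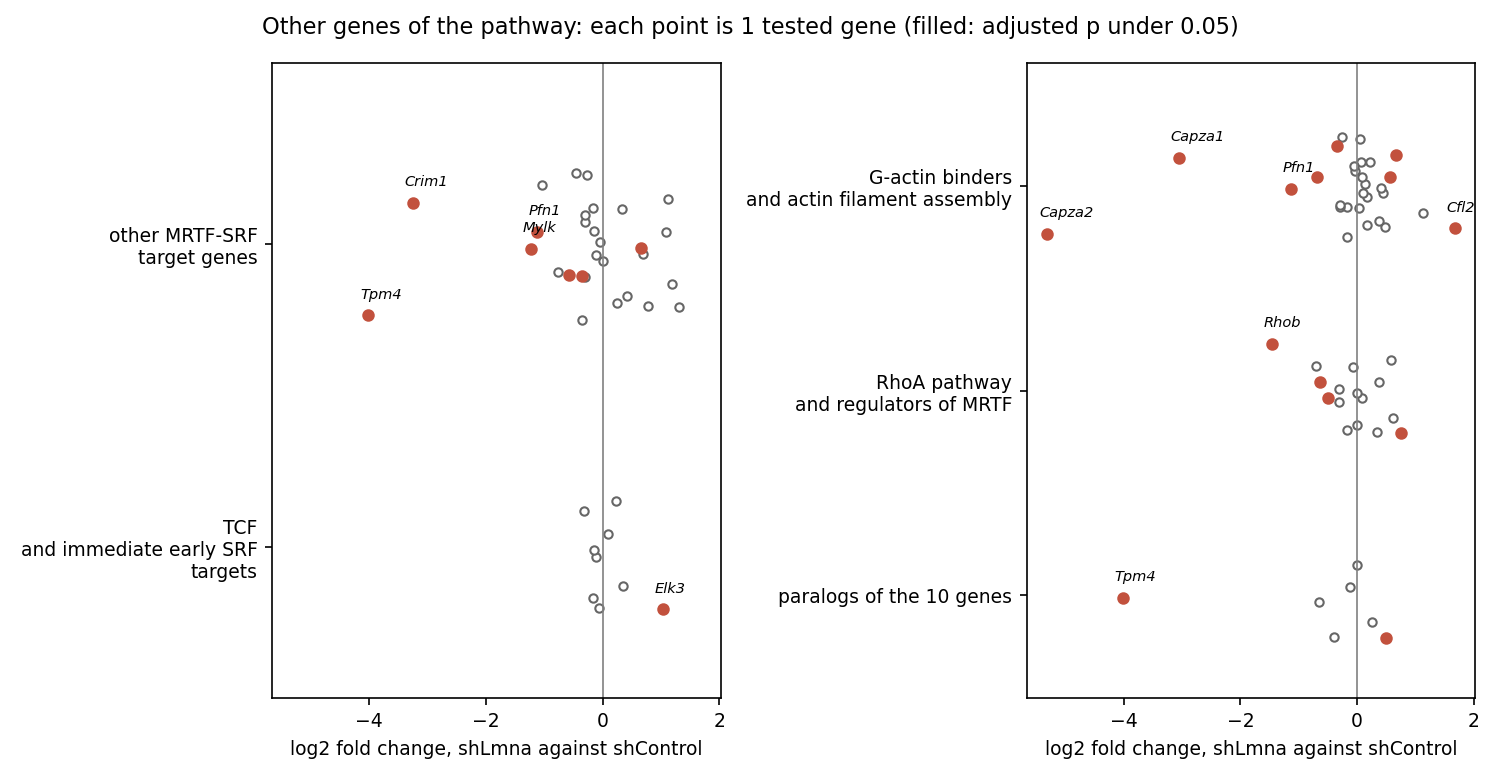
Log2 fold change of shLmna against shControl (horizontal axis) for each tested gene of 5 lists around the set, with filled points for an adjusted p under 0.05 and names for those also beyond 1. Vertical scatter within a list has no meaning. Tpm4, Capza2, Capza1 and Crim1 are the most strongly lower genes, and most points of every list lie between −1 and 1.

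SRF also works with ternary complex factors (TCFs) of the Elk family, which respond to growth factor signalling and switch on immediate early genes. Of 16 such genes 9 were tested and 1 passed (11.1%, against 15.2% of all tested genes), with a median of −0.06. That gene was Elk3, itself a TCF gene, with 25 and 44 counts in shControl against 49 and 77 in shLmna (log2 fold change 1.04, SE 0.271, adjusted p 0.0296 in edgeR). It lost the call without shControl 1, without shLmna 1 and without shLmna 2. Ier3, the most abundant of the list, had a log2 fold change of −0.06 (adjusted p 0.830 in edgeR), with either sign among the alternatives.

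Proteins that bind G-actin or build and cap filaments set the pool of actin that MRTFs sense. Of 31 such genes in the matrix 29 were tested and 8 passed (27.6%, against 15.2% of all tested genes), 5 lower and 3 higher, with a median of 0.06. Pfn1 and Cfl1, counted above, are among the lower ones. Capza1 and Capza2 encode the α subunits of capping protein, which binds filament ends. Capza2 had 89 and 378 counts in shControl against 2 and 8 in shLmna (log2 fold change −5.31, SE 0.731, adjusted p 0.00115 in edgeR) and passed under all 12 alternatives, with a 3′ end of 31.5% GC. The 2 shControl libraries differed by a factor of 3.67 for this gene, and its log2 fold change was −4.08 without shControl 2, −5.94 without shControl 1 and −6.27 without shLmna 2.

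Capza1 had 196 and 215 counts against 36 and 6 (log2 fold change −3.05, SE 0.524, adjusted p 0.00425 in edgeR). This value is uncertain, since 66.3% of its 31-base stretches occur in transcripts of other genes. Tmsb10, the gene of the G-actin sequestering protein thymosin β10, was lower too (log2 fold change −0.69, SE 0.146, adjusted p 0.0117 in edgeR), with 52.4% of such stretches shared. Capza1 was at −5.14 without shLmna 1 and −2.04 without shLmna 2, and with DESeq2 it did not pass (adjusted p 0.173, the highest of a range from 7.01e-30 over the alternatives). Tmsb10 lost its call without shLmna 2.

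The higher genes of this list were Actr2, Arpc4 and Cfl2. The GC content of their 3′ ends was 32.6%, 52.5% and 33.9%, so low values also occurred among higher genes. Actr2 and Arpc4 encode subunits of the Arp2/3 complex, which nucleates branched filaments, and had log2 fold changes of 0.67 (SE 0.125, adjusted p 0.00646 in edgeR) and 0.57 (SE 0.142, adjusted p 0.0248 in edgeR). Both lost the call without shLmna 1 and without shLmna 2. Cfl2, which encodes muscle cofilin, is outside the naming rule and is given to complete the count of 8, with 9 and 42 counts in shControl against 53 and 91 in shLmna (log2 fold change 1.67, adjusted p 0.0307 in edgeR). Its shControl libraries differed by a factor of 4.03.

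RhoA and its effectors drive the filament assembly that frees MRTFs. Of 24 genes of this group and of MRTF regulators 16 were tested and 4 passed (25%, against 15.2% of all tested genes), 3 lower and 1 higher, with a median of −0.04. Rhob had 301 and 364 counts in shControl against 77 and 141 in shLmna, or 95.3 ± 2.99 CPM and 34.4 ± 5.63 CPM (n = 2 each). Both shLmna libraries were far below both shControl libraries. Its log2 fold change was −1.45 (SE 0.160, adjusted p 0.000316 in edgeR), and it passed under all 12 alternatives.

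Rhoa itself had 932 and 1149 counts against 450 and 755, a log2 fold change of −0.63 (SE 0.128, adjusted p 0.00966 in edgeR). Kpnb1, the importin β1 gene, was lower by a small amount (−0.49, SE 0.140, adjusted p 0.0420 in edgeR). Rock2, the gene of a kinase that RhoA activates, was higher (0.75, SE 0.222, adjusted p 0.0496 in edgeR). These 3 genes lost their calls without shLmna 1 and without shLmna 2. Rhoc, the other close relative of both GTPase genes, named after its values were seen, had a log2 fold change of −0.01 (adjusted p 0.965 in edgeR).

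Paralogs of the set were counted because reads of close relatives can be confused. Of 20 listed 7 were tested and 2 passed (28.6%, against 15.2% of all tested genes), Tpm4 lower (above) and Myl6 higher. Myl6 encodes a myosin light chain and had a log2 fold change of 0.50 (SE 0.146, adjusted p 0.0476 in edgeR), with 58.3% of its 31-base stretches shared with other genes. It lost the call when either shLmna library or shControl 2 was left out. Myl12a (−0.12) and Myl12b (0.26), which like Myl9 encode regulatory light chains, did not pass, nor did Myl6b (−0.66), Tpm3 (−0.39) or Ctnna1 (−0.01), whose product is a relative of vinculin. Tpm3, with 76.3% of its 31-base stretches shared with another gene, passed under 4 of the 12 alternatives, namely without the filter on low counts, with a replicate block, without shControl 2 and with the batch-corrected values (adjusted p 0.0145 to 0.567 over all 12). Myl6b and Myl12b passed under 1, the batch-corrected values (adjusted p 0.0158 and 0.0176, in ranges up to 0.523 and 0.513).

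Tropomyosin genes had different values within the same libraries. Tpm1 had a log2 fold change of −0.11 with an interval of −0.35 to 0.13, Tpm3 one of −0.39 and Tpm4 one of −4.01 with an interval of −4.87 to −3.16. Tpm2, with 5 and 8 counts in shControl against 0 in each library of shLmna, was not tested. The intervals of Tpm1 and Tpm4 do not overlap, and the difference between genes was not tested.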

How the data were processed

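Bulk MARS-seq libraries of B16F10 cells were grouped by their titles, 2 as shControl and 2 as shLmna. Per the study's methods, reads were trimmed with Cutadapt, aligned to mm10 with STAR 2.4.2a, counted by HTSeq over the final 1000 bases of each RefSeq gene, and duplicates of a molecular identifier were marked. The authors deposited raw counts per gene symbol, which were used for every main test. Whether duplicates had been collapsed in them is not stated. The authors also deposited a size-factor signal per library, and log2 values that they had corrected with ComBat for batches that are not named, so no value within a batch can be given. Both served as alternatives, with limma 3.58.1, the signal as log2 with a pseudocount of 1. Signal values of a library were whole multiples of 1 step. Over the genes of the signal, the raw counts summed to 1.08 to 1.09 times those multiples. The raw counts are therefore not the counts behind the signal, and the cause was not tested. Poisson intervals given here take each raw count as a separate molecule. The signal table also holds the authors' own comparison, with p-values, which was not used.

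Counts were fitted in edgeR 4.0.16 (R 4.3.3) by quasi-likelihood and tested with a two-sided F test, after TMM scaling and filterByExpr, with group as the only term and Benjamini-Hochberg adjustment over 9150 genes. The limits that the study used with DESeq2 were an adjusted p of 0.05, a log2 fold change of 1 and a mean normalized count of 5. Intervals are 95%. Totals of 2494880 to 3808843 counts put the floor of 3 counts at 0.866 CPM in shControl and 1.002 CPM in shLmna, which covers counting error only. Replicates differed by more than sampling noise (chi-square per degree of freedom 6.96 and 3.91) and were kept as separate samples. Scripts were tested on simulated data.

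The genes and lists were chosen with earlier results of these data known. Named are the 10 genes, Lmna, up to 6 genes with the smallest p among those past the adjusted test in each list, the most abundant gene of each list and measured paralogs. GC content and shared 31-base stretches were computed from GENCODE transcripts of GRCm38, and promoters are RefSeq sequences of GRCm38.p6. Of the actin list, 31 of 34 genes were in the matrix, and the others were not analysed here. Alternatives were other size factors, library totals, no filter, DESeq2 1.42.0, a replicate block, each library left out, GC offsets and the 2 other tables.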

Additional observations from a re-analysis of the deposited data

How the results depend on the processing

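Only 2 libraries per group and low counts of several genes limit these results, and a lone library left in a group is assumed to vary like those of the other group. The study's limits called 699 genes, and 457 with DESeq2, 30 (28 lower and 2 higher) with limma on the batch-corrected values and 447 to 953 with 1 library left out, the lowest counts coming without shLmna 2 (447) and without shLmna 1 (464). Of the 10 genes 1, Vcl, passed under 11 of 12 alternatives, and with the batch-corrected values 3 did, Mkl1, Mkl2 and Vcl. The count of 7 other MRTF-SRF targets became 13 without the filter, 15 with the batch-corrected values and 2 to 11 with 1 library left out. With a replicate block 814 genes were called, 1 of the 10 genes and 12 of the other targets passed, and Ctnna1 had a log2 fold change of 0.00504. The titles give replicate numbers, and the descriptions give the same plate label with a different further number for each library. Neither names a batch. Deviations of libraries with the same replicate number correlated at 0.011 across genes.

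Differences near 0 changed sign. Actb was at −0.00225 with the batch-corrected values, −0.00549 with GC offsets and −0.00400 with the signal. Ctnna1 was at 0.0238 with library totals, 0.00347 with the batch-corrected values and 0.0125 with the signal. With 1 library left out, Myl9 ran from −0.15 to 0.63, Ier3 from −0.18 to 0.0737 and Ctnna1 from −0.20 to 0.20. With DESeq2, Mylk, Crim1, Elk3, Capza1, Kpnb1, Rock2 and Myl6 did not pass (adjusted p 0.0792 to 0.286), and with GC offsets Crim1, Tln1 and Rock2 did not. Lmna, Vcl, Tpm4, Capza2 and Rhob passed under all 12. The cause of these changes was not tested. The limma test on the signal was added after seeing the data, in place of a count test on counts recovered from that signal, which was not run.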

Other observations

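Several genes of these lists differed between the 2 shControl libraries themselves. Among 9137 tested genes with counts in both, 291 (3.18%) were over 2 times higher in shControl 2 and 106 (1.16%) over 2 times higher in shControl 1. In shControl 2 the level was 2.07 times that in shControl 1 for Vcl, 2.26 times for Tpm4, 3.67 times for Capza2, 4.03 times for Cfl2, 3.54 times for Fos and 5.19 times for Cald1, whose product caldesmon binds actin and tropomyosin. Cald1 had 27 and 162 counts in shControl against 160 and 179 in shLmna and did not pass the test (adjusted p 0.175 in edgeR).

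Some genes of the pathway were too low to be tested but had counts in shControl alone or nearly so. Fosl1, an immediate early gene, had 5 and 8 counts in shControl against 0 and 1 in shLmna. Rock1, the close relative of Rock2, had 3 and 3 against 0 and 0, at or under the floor of 3 counts in both groups. Kpna1, an importin α gene, had 1 and 40 against 0 and 1, and Fmnl2, a formin gene, 4 and 83 against 3 and 1, so that nearly all their counts came from shControl 2. These genes were picked after their values were seen and in the lower direction only, so they do not describe the untested genes of the pathway as a set.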
